A study of Homo sapiens with 27 samples.

Results

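SW48 cells, an established human colorectal adenocarcinoma line, were compared after withdrawal from a long natural killer (NK) cell and antibody challenge with the parental cells that never met it. The comparison uses 6 of the 27 arrays of the series, 3 from withdrawal and 3 from parental cells, and covers all 17687 genes that could be named, 17249 of them protein-coding. Withdrawal cells had first become resistant and were then kept off treatment for another 20 cycles. Resistant cells had outlived 20 cycles with cetuximab, an EGFR-blocking antibody used at 1 ug per ml, and NK-CD16 cells, NK effectors that bind the antibody's Fc part through CD16. Parental cells had no treatment, and the labels describe them as grown from a single clone. The 3 resistant arrays of SW48 are given beside the comparison as levels. Withdrawal cells differ from parental cells both in past treatment and in time in culture, and the design has no untreated cells of the same age, so the contributions of treatment history and of passage cannot be told apart. Whether replicates were separate cultures is not stated, so each p-value measures only the spread between these arrays.

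Cetuximab blocks EGFR, the receptor that drives growth through the ERK cascade in many intestinal epithelia, and its Fc part draws in NK cells by CD16. NK cells weigh activating ligands on a target against inhibitory ones such as class I antigen-presenting molecules, and kill with granzymes and death receptor ligands. Interferon gamma that they release raises antigen presentation in the target. A comparison of cells taken off this pressure with cells never under it asks which transcripts lie at the parental level and which do not.

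Values are single-colour array readings deposited per probe set and read here as log2 intensities, so a difference of 1 means a factor of 2. Gene medians ran from 6.43 to 6.54 over the 9 SW48 arrays, and 46.2% to 49.9% of genes lay above background, set at the 95th percentile of the 612 negative control probe sets of each array. That background averaged 6.88 in withdrawal and 6.72 in parental arrays, with the highest array value, 7.24, in withdrawal replicate 3. Across all genes, Pearson's r was 0.99534 to 0.99568 between withdrawal arrays, 0.99556 to 0.996 between parental arrays and 0.99321 to 0.99409 between the groups. Resistant arrays stood further off, with r of 0.98318 to 0.98464 to the withdrawal arrays and 0.98262 to 0.98385 to the parental ones. Genes are not independent replicates, so these correlations only describe the arrays. Of 13 colorectal epithelial markers 6 were above background in withdrawal and 7 in parental cells; KRT8 and KRT18 were called higher and CEACAM5 lower. EPCAM read 15.30 in withdrawal and 15.37 in parental cells, KRT8 read 16.61 in withdrawal and 16.14 in parental cells. CDX2, a transcription factor of the intestine, read 12.46 in withdrawal and 12.96 in parental cells. CDH17, CDX1, GPA33, LGALS4, MUC13 and VIL1 were near background in both groups.

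A limited set of genes passed the threshold between withdrawal and parental cells, and its size depended on the fit. With limma on the 9 SW48 arrays, 380 genes (2.15% of those tested) passed a Benjamini-Hochberg adjusted p of 0.05, 156 higher (0.882%) and 224 lower (1.27%). Of these, 149 (0.842%) differed by at least 1 on the log2 scale, 58 of them higher and 91 lower. This 2-fold count includes genes near background, where a log2 difference is not read as a fold. At an unadjusted p of 0.05 the same fit had 2738 genes. The median size of a called change was 0.88 on the log2 scale, against a median standard error of 0.17 and a median change of 0.00022 over all genes. The 3 withdrawal arrays lay wholly above or below the 3 parental arrays for 3915 genes (22.1%), among them all of the 380 called genes. Both groups were above background for 294 called genes, withdrawal cells alone for 13 and parental cells alone for 25, while 48 lay near background in both and are given with no fold. Leaving out any 1 of the 6 arrays brought the called number to between 164 and 199, and centring each array on its median changed the share called higher to 54.4%, against 41.1% as deposited. The last called genes were GTF2H5 and CAV2, both lower by 0.69 with adjusted p of 0.0494 and 0.0496, and the first beyond the threshold were ARHGAP19 and CACNA1H, higher by 0.55 and 0.74 with adjusted p of 0.0502.

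**Figure D1:**
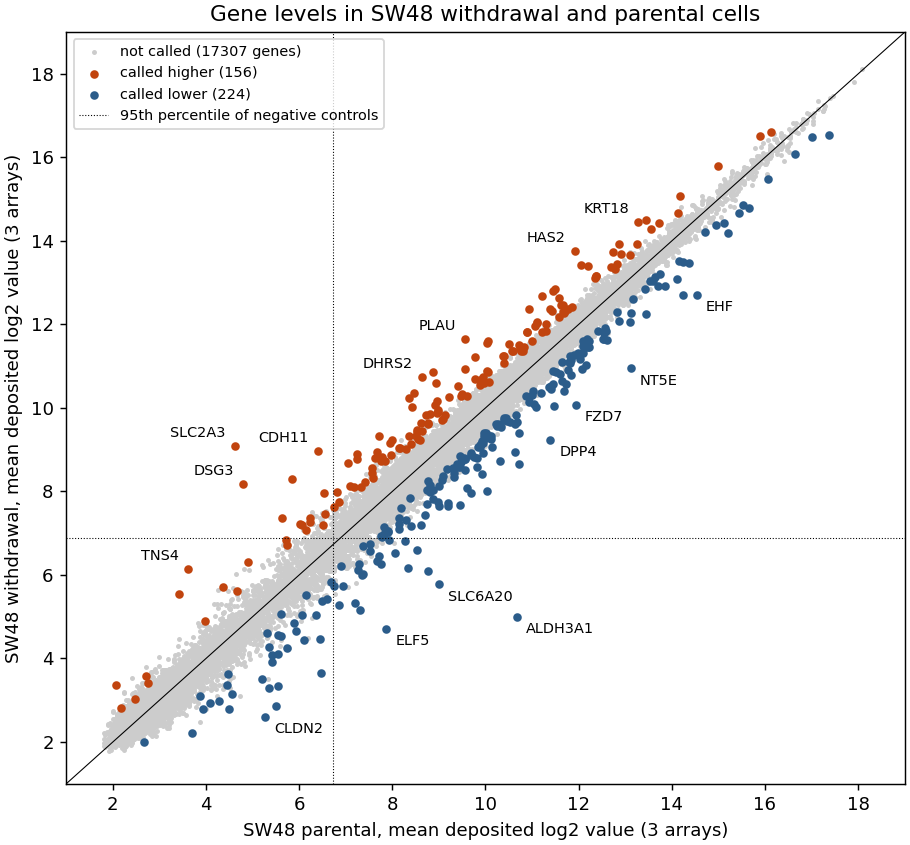
Mean deposited log2 value of each gene in 3 SW48 withdrawal arrays (vertical axis) against 3 parental arrays (horizontal axis), 1 point per gene. Orange points are the 156 genes called higher, blue points the 224 called lower, dotted lines the background of each group and the solid line equality; ALDH3A1 and SLC2A3 lie farthest from that line.

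The genes with the largest called changes were taken from those whose groups do not overlap, so that property is no result for them. The largest rise in log2 value was in SLC2A3, the glucose transporter GLUT3. It read 8.96, 8.93 and 9.41 in withdrawal cells, against 5.25, 5.27 and 3.31 in parental cells. Every withdrawal array was above background and every parental array below it. The difference was 4.49 (SE 0.44, adjusted p = 0.000965), at least 5.20-fold against the background level. Resistant arrays read 9.45 to 9.63, near the withdrawal values.

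A pair of cadherins rose that were near background in parental and in resistant cells. DSG3, a desmosomal cadherin of stratified epithelia, read 8.23, 8.56 and 7.76 in withdrawal cells, against 5.58, 4.68 and 4.11 in parental cells, a difference of 3.39 (SE 0.35, adjusted p = 0.00115) and at least 2.75-fold. CDH11, a cadherin best known from mesenchymal cells, read 8.88, 8.96 and 9.10 in withdrawal cells, against 6.57, 6.08 and 6.56 in parental cells, a difference of 2.58 (SE 0.20, adjusted p = 0.00026) and at least 4.78-fold. Resistant arrays read 3.31 to 3.93 for DSG3 and 3.79 to 4.53 for CDH11, so the level seen in withdrawal cells was found in neither of the other states.

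DHRS2, a short-chain dehydrogenase, showed the same order of states. It read 10.93, 10.77 and 10.56 in withdrawal cells, against 8.80, 8.69 and 8.42 in parental cells, a rise of 2.12 (SE 0.21, adjusted p = 0.00109) or 4.34-fold. Its resistant arrays were near background at 4.34 to 5.12. PDE4D, which breaks down cyclic AMP, rose by 1.89 (SE 0.35, adjusted p = 0.0259), and read 9.96, 10.54 and 10.23 in withdrawal cells and 8.85, 7.90 and 8.32 in parental cells. Its resistant arrays read 4.86 to 6.27. SLC16A4, of the monocarboxylate transporter family, rose by 2.45 (SE 0.45, adjusted p = 0.0271, at least 2.96-fold). Its parental arrays spread widely, from 5.25 to 6.96, while its withdrawal arrays read 8.11 to 8.64.

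Urokinase and its receptor rose together. PLAU, the secreted protease that activates plasminogen, read 11.50, 11.68 and 11.76 in withdrawal cells, against 9.44, 9.58 and 9.65 in parental cells, a rise of 2.09 (SE 0.13, adjusted p = 7.7e-05) or 4.27-fold. PLAUR, the surface receptor that holds urokinase at the membrane, read 10.42, 10.46 and 10.21 in withdrawal cells, against 8.30, 8.65 and 8.46 in parental cells, a rise of 1.90 (SE 0.13, adjusted p = 0.000135) or 3.73-fold. In both genes the gap between the groups was several times the spread within either, which their choice as large called changes favours. Resistant arrays read 11.24 to 11.48 for PLAU and 10.38 to 10.60 for PLAUR.

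Promoter windows are shown for this pair and for the other named risen genes that hold the AP-1 element, because urokinase genes are textbook targets of the JUN and FOS family that binds it. Each RefSeq window runs from 250 bases before to 50 after the first listed start of a gene on GRCh38.p14: chr10:73910360-73910659 on the plus strand for PLAU, chr19:43670120-43670419 on the minus strand for PLAUR, chr5:60496237-60496536 on the minus strand for PDE4D, chr1:89022817-89023116 on the minus strand for GBP3 and chr17:7579388-7579687 on the plus strand for CD68. Capitals mark TGACTCA read on either strand, as TGACTCA or TGAGTCA.
PLAU: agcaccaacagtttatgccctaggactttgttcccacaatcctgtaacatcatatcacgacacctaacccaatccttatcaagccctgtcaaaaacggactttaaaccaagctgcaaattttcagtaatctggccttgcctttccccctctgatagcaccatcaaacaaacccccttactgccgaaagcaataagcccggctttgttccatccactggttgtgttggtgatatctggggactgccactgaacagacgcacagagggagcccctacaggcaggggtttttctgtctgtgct
PLAUR: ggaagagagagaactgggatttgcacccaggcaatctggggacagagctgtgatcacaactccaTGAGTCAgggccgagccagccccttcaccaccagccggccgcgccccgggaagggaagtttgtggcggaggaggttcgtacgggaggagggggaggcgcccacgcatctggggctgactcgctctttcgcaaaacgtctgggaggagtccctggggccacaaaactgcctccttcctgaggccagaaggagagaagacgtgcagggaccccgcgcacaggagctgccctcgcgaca
PDE4D: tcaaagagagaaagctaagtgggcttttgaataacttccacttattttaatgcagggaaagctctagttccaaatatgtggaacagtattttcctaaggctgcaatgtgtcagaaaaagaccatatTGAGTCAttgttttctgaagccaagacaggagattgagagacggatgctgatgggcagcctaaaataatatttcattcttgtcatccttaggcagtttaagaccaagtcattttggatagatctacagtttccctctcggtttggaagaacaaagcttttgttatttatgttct
GBP3: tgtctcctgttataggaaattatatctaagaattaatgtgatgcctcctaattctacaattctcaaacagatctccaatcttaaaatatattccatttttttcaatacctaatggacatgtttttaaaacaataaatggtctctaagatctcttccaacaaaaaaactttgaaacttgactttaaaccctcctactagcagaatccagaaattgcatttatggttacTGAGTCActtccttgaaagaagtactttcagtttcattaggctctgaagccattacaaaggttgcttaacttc
CD68: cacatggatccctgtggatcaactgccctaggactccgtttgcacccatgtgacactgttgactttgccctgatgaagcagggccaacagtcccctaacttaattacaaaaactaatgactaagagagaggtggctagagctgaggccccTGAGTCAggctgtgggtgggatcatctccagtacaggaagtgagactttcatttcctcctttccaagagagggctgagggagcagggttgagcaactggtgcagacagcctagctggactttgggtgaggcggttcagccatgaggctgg
The element begins 186 bases before the start in PLAUR, 124 before in PDE4D, 23 before in GBP3 and 100 before in CD68, and the PLAU window does not hold these letters. The PLAU and PDE4D windows lie at starts inside the annotated gene, and further starts of these genes, upstream ones included, were not searched. Over the 14250 measured genes with a window, 520 (3.65%) held the element, as did 7 of the 120 called higher that had one (5.83%) and 3 of the 185 called lower (1.62%). The core of the interferon-stimulated response element, GAAA repeated after any 2 bases and read on either strand, was in 2 of the 120 (1.67%) and 9 of the 185 (4.86%), against 443 of all windows (3.11%). The GBP3 window shown above also holds this core, as TTTCAGTTTC after its AP-1 element, and capitals do not mark it. These are matches of letters, with no test and no evidence of binding. Of 7 JUN and FOS genes measured, looked up after their values were seen, 2 were called higher and 1 lower, against 2.15% called over all genes. FOSL2 rose by 0.90 (adjusted p = 0.00834), JUN rose by 0.54 (adjusted p = 0.049) and JUNB fell by 0.52 (adjusted p = 0.0474), while JUND, FOS, FOSB and FOSL1 did not pass. JUN and JUNB lie close to the threshold of 0.05, and the calls on FOSL2, JUN and JUNB were not checked in other settings. In LIM1215 and Caco2, JUN changed by 1.11 and 1.05, JUNB by 1.00 and 0.51 and FOSL2 by -0.04 and 0.11.

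The other large rises covered secretion, matrix and signalling. LCN2, which binds bacterial siderophores, read 11.07, 10.81 and 10.73 in withdrawal cells, against 8.64, 8.84 and 9.13 in parental cells, a rise of 2.00 (SE 0.17, adjusted p = 0.000408), with resistant arrays still higher at 13.01 to 13.46. HAS2, a hyaluronan synthase, read 13.73, 13.84 and 13.71 in withdrawal cells, against 11.95, 12.12 and 11.68 in parental cells, a rise of 1.85 (SE 0.13, adjusted p = 0.000138). CRABP2, a carrier of retinoic acid, rose by 1.67, and its withdrawal arrays (8.85 to 8.94) lay between the parental (7.10 to 7.39) and the resistant ones (11.30 to 11.38). RASGRP1, which loads RAS with GTP, rose by 1.66, and read 10.42 to 10.84 in withdrawal cells, against 8.58 to 9.23 in parental cells. SLC29A4, a transporter of monoamines and nucleosides, rose by 1.62.

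**Figure D2:**
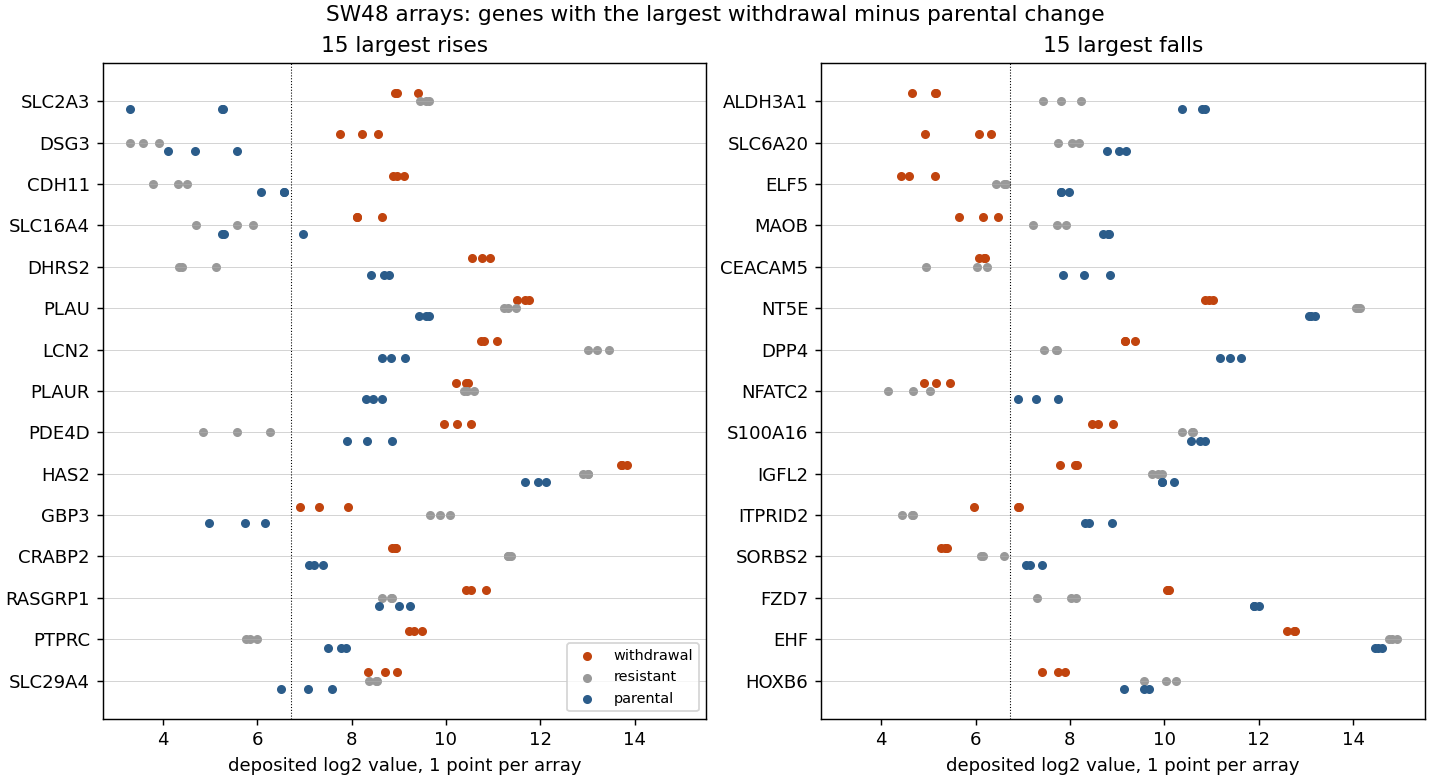
Deposited log2 values of the 15 genes with the largest rises (left) and falls (right), 1 point per array, with withdrawal in orange, resistant in grey and parental in blue, 3 arrays each. The dotted line is the parental background of 6.72. Genes were chosen so that orange and blue points do not overlap; the grey points lie now near one group, now near the other and now outside both.

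The largest change of all was a fall in ALDH3A1, an aldehyde dehydrogenase that detoxifies aldehydes. It read 5.15, 4.65 and 5.17 in withdrawal cells, against 10.79, 10.86 and 10.37 in parental cells. All withdrawal arrays were below background, and the fall of 5.68 (SE 0.23, adjusted p = 6.79e-06) is at least 13.8-fold against it. Resistant arrays lay between, at 7.44 to 8.23.

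A pair of neighbouring ETS-family transcription factors of glandular epithelia also fell. ELF5 read 5.14, 4.59 and 4.43 in withdrawal cells, against 7.82, 7.82 and 7.98 in parental cells, a fall of 3.15 (SE 0.18, adjusted p = 5.73e-05) to below background and at least 1.98-fold. EHF read 12.75, 12.60 and 12.76 in withdrawal cells, against 14.53, 14.47 and 14.61 in parental cells, a fall of 1.83 (SE 0.11, adjusted p = 7.7e-05) or 3.56-fold. Their starts lie 142302 bases apart on chromosome 11. Resistant arrays read 14.76 to 14.93 for EHF, beside the parental values, and 6.44 to 6.64 for ELF5, between the withdrawal and parental values and below background.

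NT5E (CD73), which turns extracellular AMP into adenosine, read 10.86, 11.03 and 10.95 in withdrawal cells, against 13.06, 13.19 and 13.11 in parental cells, a fall of 2.17 (SE 0.11, adjusted p = 2.51e-05) or 4.50-fold. DPP4 (CD26), a brush border peptidase, read 9.38, 9.16 and 9.17 in withdrawal cells, against 11.62, 11.18 and 11.39 in parental cells, a fall of 2.16 (SE 0.15, adjusted p = 0.000117) or 4.48-fold. The resistant arrays stood on opposite sides for this pair, at 14.05 to 14.14 for NT5E and 7.44 to 7.74 for DPP4. SLC6A20, a carrier of proline, fell by 3.22 (SE 0.31, adjusted p = 0.000861, at least 4.33-fold). CEACAM5, the carcinoembryonic antigen, was at 6.08 to 6.21 in withdrawal cells, below background, and at 7.85 to 8.86 in parental cells, a fall of 2.17 (SE 0.33, adjusted p = 0.0107). MAOB, a mitochondrial monoamine oxidase, fell by 2.68 (SE 0.23, adjusted p = 0.000396).

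Further falls were in signalling and structural genes. FZD7, a WNT receptor, read 10.08, 10.06 and 10.10 in withdrawal cells, against 12.00, 11.90 and 11.90 in parental cells, a fall of 1.85 (SE 0.19, adjusted p = 0.00138). NFATC2, a calcium-responsive transcription factor, fell by 2.14 to below background. The calcium-binding S100A16 fell by 2.06. IGFL2, a secreted relative of insulin-like growth factors, fell by 2.02, and in both the resistant arrays lay at or near the parental level, at 10.38 to 10.60 and 9.73 to 9.96. ITPRID2 fell by 1.93, the actin adaptor SORBS2 fell by 1.88 and the homeobox gene HOXB6 fell by 1.77.

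Members of 39 gene lists were then counted. Each count of called members is to be read against the 2.15% called over all genes. Each list median is to be read against the all-gene median of 0.00022. Counts at an unadjusted p of 0.05 stand against 2738 of all 17687 genes at that level. Counts from other fits stand against 722 genes with all 27 arrays, 903 with the robust estimate and 884 of 8848 with dim genes left out. Of the 61 named genes that were called, 21 lost the call in at least 1 of up to 15 other settings: SLC16A4, PDE4D, GBP3, SLC29A4, DUSP4, ULBP1, NFKB2, TNFRSF10B, CASP4, KRT80, KRT8, PRRX1, SMAD7, AXIN2, CDKN1A, DDIT4, SLC6A6, SLC7A11, TMPRSS4, MET and ROR1. Among ErbB receptors and ligands, 0 of 12 were called higher and 1 lower (median -0.13). EGFR, the target of cetuximab, read 13.31, 13.27 and 13.30 in withdrawal cells, against 13.37, 13.64 and 13.67 in parental cells, a difference of -0.27 (SE 0.13, adjusted p = 0.368) that did not pass. Its resistant arrays read 11.19 to 11.49, below both. ERRFI1, a feedback inhibitor of EGFR, fell by 0.86 (SE 0.11, adjusted p = 0.00348), and read 14.81, 14.89 and 14.69 in withdrawal cells and 15.68, 15.66 and 15.65 in parental cells. Of 19 ERK output genes (median 0.16) only DUSP4, a phosphatase that acts on ERK, was called, lower by 0.56 (adjusted p = 0.0348). At an unadjusted p of 0.05 there were 6, of which 4 were higher, and the robust fit called 2 higher and 3 lower. Of 31 receptor tyrosine kinases and adaptors, 1 was higher and 2 lower (median 0.18): IGFBP3, which binds insulin-like growth factors, rose by 1.45, MET, the receptor of hepatocyte growth factor, fell by 0.80 and the orphan receptor ROR1 fell by 0.66. MET read 11.18 to 11.43 in withdrawal and 11.84 to 12.27 in parental cells, with resistant arrays at 14.41 to 14.61. At an unadjusted p of 0.05 this receptor and adaptor list had 11 members, 8 of them higher.

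**Figure D3:**
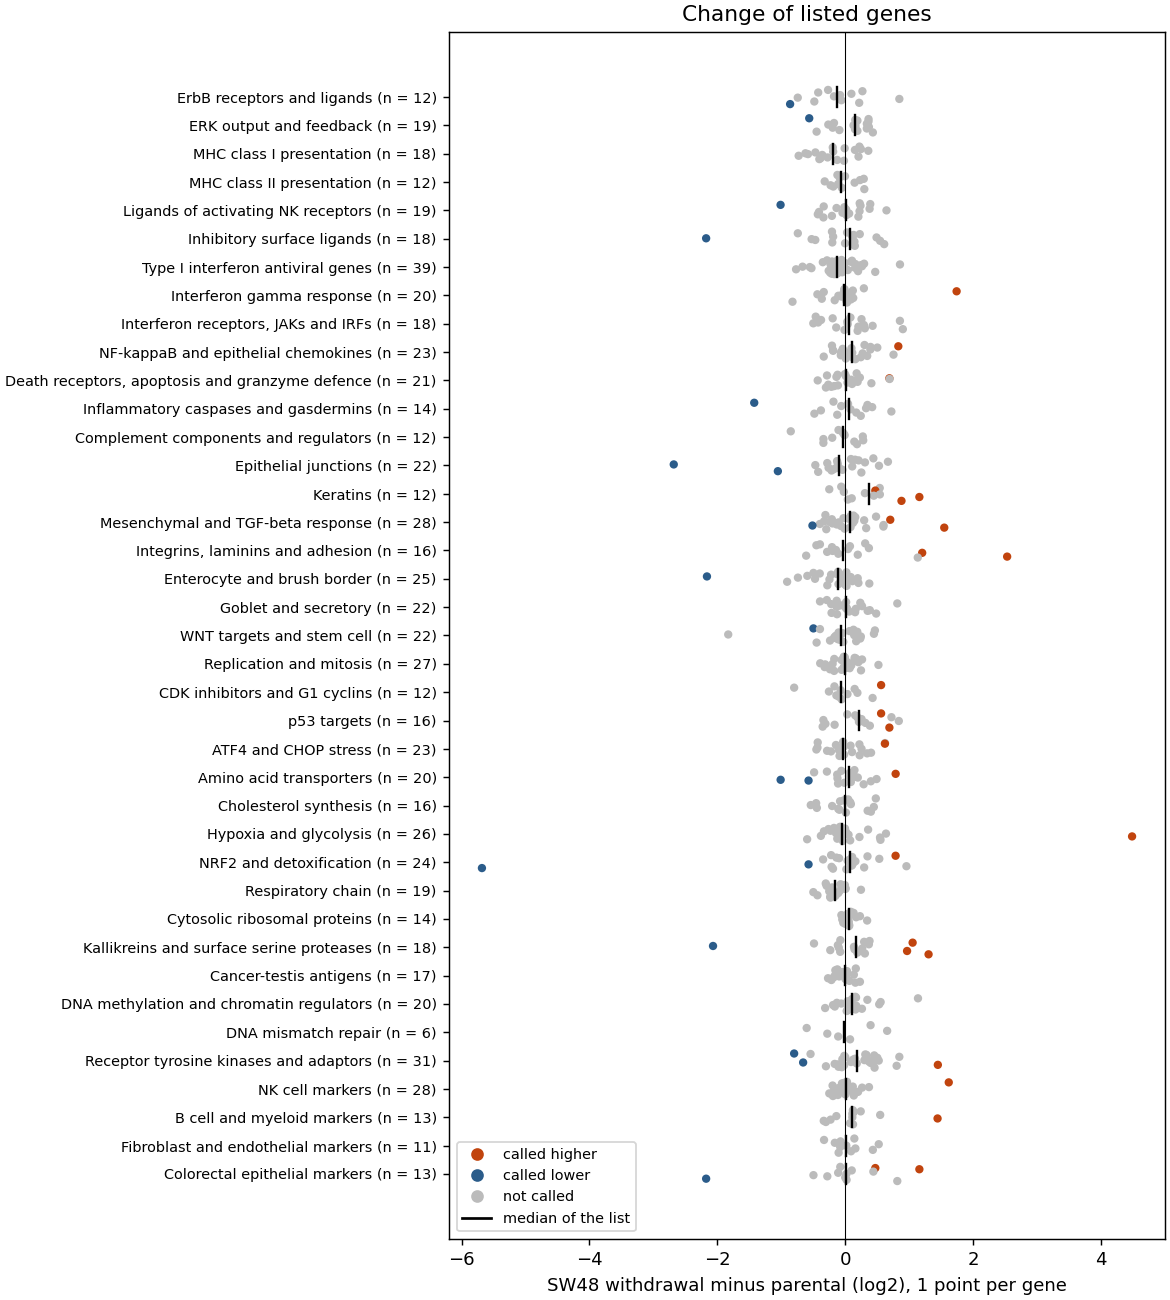
Change of each measured member of the 39 gene lists (log2, withdrawal minus parental, horizontal axis), 1 point per gene, with called members in orange (higher) or blue (lower) and a bar at each list median. Most points lie within 1 of 0 and every list median within 0.4 of it; ALDH3A1 and SLC2A3 are the far points in the detoxification and glycolysis lists.

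Few antigen presentation and interferon genes passed between withdrawal and parental cells. With limma, 0 of 18 class I presentation genes and 0 of 12 class II genes were called. Of the class I genes 13 were above background in withdrawal and 14 in parental cells, but no class II gene was in either group. At an unadjusted p of 0.05 the class I list had 3, all lower, and the class II list 0, and with a robust variance estimate 1 class I gene was lower. The class I median of -0.19 was the lowest of the 39 lists. Its summed log2 level was 164.79 to 167.1 on withdrawal arrays, 167.35 to 170.31 on parental arrays and 198.69 to 200.69 on resistant arrays. B2M, the light chain of class I molecules, read 11.61, 11.55 and 11.31 in withdrawal cells, against 11.31, 11.39 and 11.32 in parental cells, and 13.79 to 14.08 in resistant cells. The class II chaperone CD74 was near background at 2.91 to 3.29 in withdrawal and 2.61 to 3.74 in parental cells, while its resistant arrays read 13.45 to 13.76. HLA-DRA, a class II chain, read 1.95 to 2.45 in withdrawal and 2.03 to 2.45 in parental cells, and 9.68 to 10.11 in resistant cells. All 39 measured type I interferon genes missed the threshold of limma, 6 reached an unadjusted p of 0.05, and 1 was lower in the fit on all 27 arrays. The list median was -0.12.

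Of 20 interferon gamma response genes 1 was called, and only 4 were above background in withdrawal and 3 in parental cells. GBP3, an interferon-inducible GTPase, read 7.30, 6.91 and 7.92 in withdrawal cells, against 6.17, 4.98 and 5.75 in parental cells, a rise of 1.74 (SE 0.32, adjusted p = 0.0254) and at least 1.57-fold. Its resistant arrays read 9.67 to 10.08. IRF1, a transcription factor of the same response, differed by 0.29 (adjusted p = 0.329). Among interferon receptors, JAKs and IRFs, limma called 0 of 18, with 3 at an unadjusted p of 0.05, 1 higher and 1 lower with dim genes left out, and 1 higher with the robust estimate. JAK1 differed by 0.03. NFKB2, a subunit of NF-kappaB, was the only 1 of 23 genes called in its list and rose by 0.83 (adjusted p = 0.0292).

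Ligands that NK cells read changed in few cases. Of 19 ligands of activating receptors 1 was called, ULBP1, a ligand of NKG2D, which read 9.79, 9.69 and 9.38 in withdrawal cells, against 10.65, 10.58 and 10.66 in parental cells, a fall of 1.01 (SE 0.15, adjusted p = 0.00819). The other NKG2D ligands MICA and MICB differed by 0.23 and 0.39 with adjusted p of 0.583 and 0.208. PVR, which binds DNAM-1, differed by 0.02. NECTIN2, of the same list, differed by 0.65 (adjusted p = 0.0631) and did not pass. It was higher in the fit on all 27 arrays (adjusted p = 0.00267). Of 18 inhibitory ligands only CEACAM5 was called. CD274 (PD-L1) was near background in both groups and differed by -0.21 (adjusted p = 0.612). Among 21 death receptor, apoptosis and granzyme defence genes 1 rose, the TRAIL receptor TNFRSF10B, by 0.69 (adjusted p = 0.0319). FAS, SERPINB9 and CASP8 differed by 0.18, -0.22 and -0.12 and did not pass. Of 14 inflammatory caspases and gasdermins CASP4 was called lower, with both groups near background. Of 12 complement genes limma called 0, with 1 at an unadjusted p of 0.05 and 0 with either the robust estimate or dim genes left out.

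Markers of the challenging cells were mostly silent. Of 28 NK cell markers 1 was above background in withdrawal cells, the same number in parental cells and 6 in resistant cells. The summed log2 level of the list was 84.7 to 89.0 on withdrawal arrays, 82.7 to 86.2 on parental arrays and 131 to 141 on resistant arrays. GNLY and NCAM1 were near background in both groups. The detected marker was PTPRC (CD45), a phosphatase of leukocytes, which read 9.33, 9.49 and 9.21 in withdrawal cells, against 7.78, 7.88 and 7.50 in parental cells, a rise of 1.62 (SE 0.14, adjusted p = 0.000415). Its resistant arrays were lower than both, averaging 5.87. In the B cell and myeloid list of 13, CD68, a lysosomal glycoprotein known as a macrophage marker, rose by 1.45 (SE 0.21, adjusted p = 0.00729, at least 2.38-fold) and was the only member above background in withdrawal cells. The summed log2 level of that list was 41.7 to 43.5 on withdrawal and 40.0 to 41.9 on parental arrays. Of 11 fibroblast and endothelial markers limma called 0, with 1 at an unadjusted p of 0.05, and none was above background in either group.

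Epithelial structure shifted in single genes. Of 12 keratins 3 rose and none fell, and the list median of 0.38 was the highest of the 39 lists. KRT18, a keratin of simple epithelia, read 14.56, 14.47 and 14.31 in withdrawal cells, against 13.29, 13.30 and 13.28 in parental cells, a rise of 1.16 (SE 0.11, adjusted p = 0.000769). Its filament partner KRT8 rose by 0.47 (adjusted p = 0.0462) and KRT80 by 0.88 (adjusted p = 0.00264). Among 22 junction genes 2 fell: PKP2, a desmosomal plaque protein, by 1.05 (SE 0.10, adjusted p = 0.000965), and the tight junction claudin CLDN2, by 2.68 with both groups near background. CDH1, the epithelial cadherin, differed by 0.44 (adjusted p = 0.0872). The call on KRT8 was lost in 10 of 15 other settings.

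In the mesenchymal and TGF-beta list of 28, 2 rose and 1 fell (median 0.07). CCN1, a matricellular protein, read 11.55, 11.64 and 11.60 in withdrawal cells, against 10.27, 10.09 and 9.78 in parental cells, a rise of 1.55 (SE 0.14, adjusted p = 0.000453). PRRX1, a mesenchymal homeobox factor, rose by 0.71 (adjusted p = 0.0183), and its resistant arrays were near background at 3.69 to 3.94. SMAD7, an inhibitor of TGF-beta signalling, fell by 0.51 (adjusted p = 0.0456), a call lost in 11 of 15 other settings. Of 16 integrin and adhesion genes 2 rose: ITGB8, an integrin chain, by 1.20 (SE 0.13, adjusted p = 0.00156), and TNS4, a tensin of focal adhesions, by 2.53 with both groups near background. TNS4 read 5.80 to 6.55 in withdrawal cells and 3.37 to 3.76 in parental cells, far under the 11.64 to 11.95 of resistant cells.

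The kallikrein and surface protease list of 18 had 3 higher and 1 lower (median 0.17). KLK6, a secreted kallikrein, read 13.90, 13.90 and 13.97 in withdrawal cells, against 12.76, 12.85 and 12.99 in parental cells, a rise of 1.05 (SE 0.11, adjusted p = 0.00144). The membrane protease TMPRSS4 rose by 0.97 (adjusted p = 0.0241). SERPINA1, a protease inhibitor, was called higher and KLK11 lower, each with both groups near background. Resistant arrays read 15.56 to 15.71 for KLK6, an average of 9.15 for SERPINA1 and 5.14 to 5.80 for TMPRSS4.

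Lineage lists moved in few members. DPP4 was the only 1 of 25 enterocyte genes called, and 5 reached an unadjusted p of 0.05, none of them higher. Only 4 of the 25 were above background in withdrawal cells and 4 in parental cells. Of 22 goblet and secretory genes limma called 0, with 2 at an unadjusted p of 0.05 and 0 in the fits with dim genes left out and with the robust estimate. Only 1 of the 22 was above background in withdrawal cells and 1 in parental cells. Of 22 WNT target and stem cell genes, AXIN2, a negative regulator of WNT signalling, fell by 0.50 (adjusted p = 0.0421), a call lost in 10 of 15 other settings. CDX2 differed by -0.50 (adjusted p = 0.0763) and did not pass. It was lower in the fit on all 27 arrays (adjusted p = 0.00877).

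Growth and stress lists had few called members. Of 27 replication and mitosis genes limma called 0, with 5 at an unadjusted p of 0.05 and, with the robust estimate, 1 higher and 1 lower (median -0.01). CDKN1A, the inhibitor p21, rose by 0.56 (adjusted p = 0.0411). Together with TNFRSF10B it made 2 of 16 p53 targets that rose (median 0.21). That list had 8 members at an unadjusted p of 0.05, 7 of them higher. DDIT4, a stress-induced inhibitor of mTOR, was the 1 of 23 ATF4 and CHOP genes called and rose by 0.62 (adjusted p = 0.0202). Its 3 resistant arrays, at 13.06 to 13.12, lay below the 16.44 to 16.63 of withdrawal and the 15.86 to 15.95 of parental cells. Of 20 amino acid transporters, SLC7A8 fell by 1.01 (adjusted p = 0.00386), SLC7A11, the cystine carrier, fell by 0.57 (adjusted p = 0.041) and SLC6A6, the taurine carrier, rose by 0.79 (adjusted p = 0.0171).

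Metabolic lists were led by the same extremes. SLC2A3 was the only 1 of 26 hypoxia and glycolysis genes called (median -0.05). Of 24 NRF2 and detoxification genes, NQO1, a quinone reductase, rose by 0.79 (SE 0.11, adjusted p = 0.00557), while ALDH3A1 and SLC7A11 fell. With limma, 0 of 16 cholesterol synthesis, 0 of 19 respiratory chain, 0 of 14 ribosomal protein, 0 of 17 cancer-testis, 0 of 20 chromatin and 0 of 6 mismatch repair genes were called. These lists had 5, 2, 0, 0, 4 and 3 members in that order at an unadjusted p of 0.05. No cancer-testis gene was above background in either group. In the fit on all 27 arrays 2 cholesterol genes were higher and 1 lower, 1 chromatin gene was higher and 1 respiratory chain gene lower. In the robust fit 1 cholesterol, 1 chromatin and 1 mismatch repair gene were higher, and 1 respiratory chain and 1 mismatch repair gene were lower.

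Genes picked for their low levels in resistant cells did not pass between withdrawal and parental cells. PTPN13, a phosphatase, read 11.69, 11.73 and 11.79 in withdrawal cells, against 12.21, 11.68 and 12.22 in parental cells, a difference of -0.30 (adjusted p = 0.436), with resistant arrays at 3.25 to 3.65. PSD3 and the receptor adaptor GRB10 differed by -0.39 and -0.30 with adjusted p of 0.59 and 0.42. They read 10.19 to 10.51 and 10.21 to 10.45 in withdrawal cells and 10.63 to 10.83 and 10.44 to 10.95 in parental cells. Their resistant arrays read 2.38 to 3.72 for PSD3 and 4.77 to 5.08 for GRB10.

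A group picked after the values were seen was the replication-dependent histone genes, whose clusters supply histones during DNA synthesis. Of 61 measured, none was called higher and 12 were called lower (19.7%, against 1.27% lower over all genes), and 45 of the remaining 49 also had a change below 0. The median change was -0.29, and among the 41 above background 10 were called lower. Among the called genes H4C2 fell by 1.03, the most, and H2AC14 fell by 0.51, the least. H4C4 read 8.70, 8.86 and 8.82 in withdrawal cells, against 10.01, 9.72 and 9.71 in parental cells. Its resistant arrays averaged 6.24. The median change of the same genes between resistant and parental SW48 cells was -0.19, and between withdrawal and parental cells it was 0.10 in LIM1215 and 0.16 in Caco2. Histone genes are near-identical copies that may share probe sequence, so they are not independent measurements, and after centring each array on its median only 4 were called lower. Over all other settings the number called lower was 2 to 17, and 2 to 4 when 1 of the 6 arrays was left out.

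**Figure D4:**
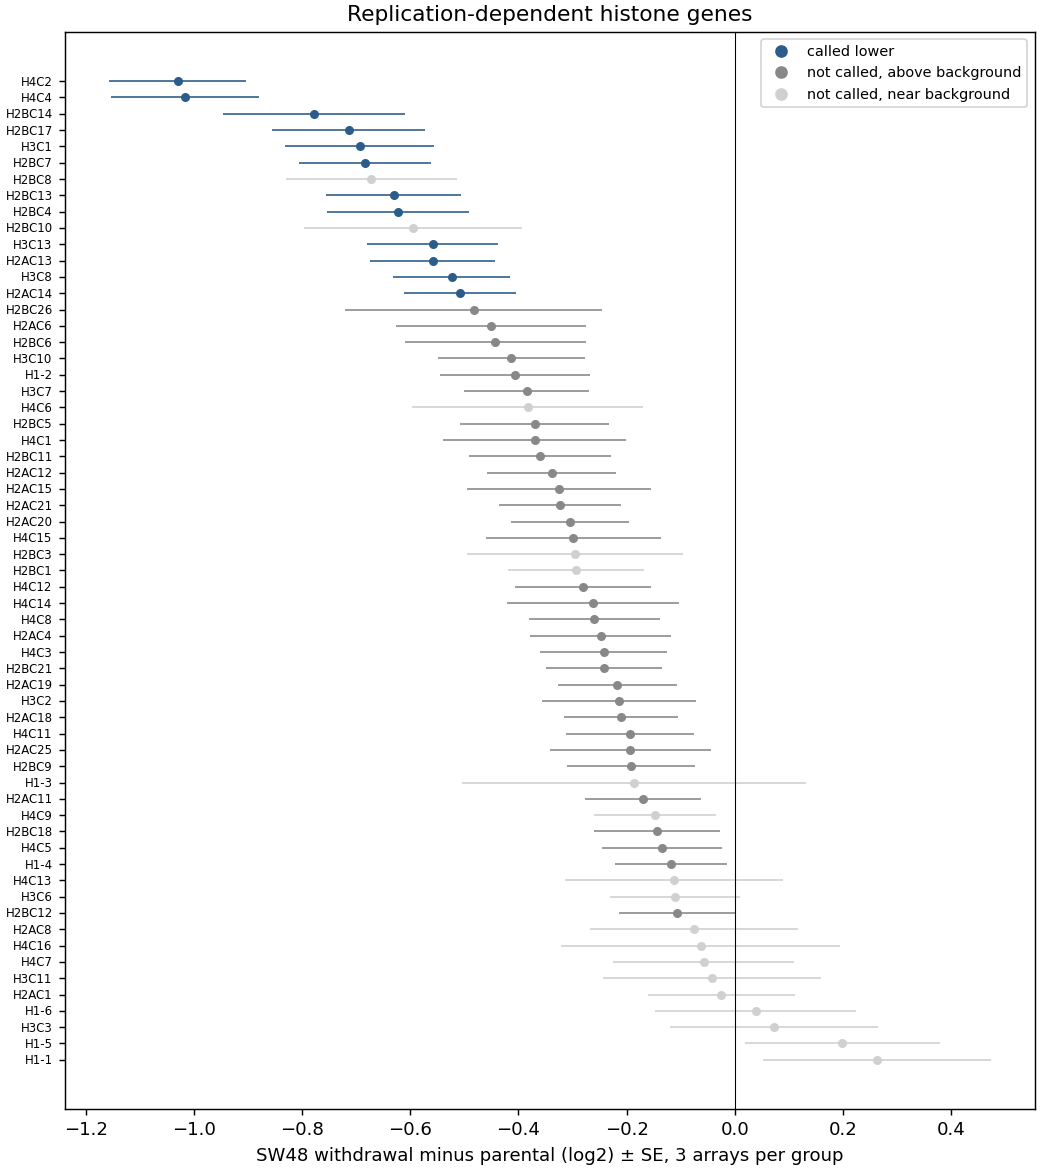
Change (log2, withdrawal minus parental) with its standard error for 61 replication-dependent histone genes, ordered by size, from 3 arrays per group. Blue points are the 12 called lower and grey points the others, pale where near background; 57 of the 61 points lie left of 0.

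Called genes also lay side by side on chromosomes, another pattern picked after the values were seen. Among 20 pairs of called genes with no other measured gene between them, 19 changed in the same direction, 7 both higher and 12 both lower. The 20 pairs are 0.113% of the 17662 adjacent pairs measured, and over all of those, called or not, 50.6% had the same sign. Of the 12 lower pairs 3 were histone genes, and 17 pairs were left without them, 16 in the same direction. Besides ELF5 and EHF they included KRT8 and KRT18, MAOB and NDP, HOXB6 and HOXB7, and IGFBP4 and TNS4. Of these genes TNS4 was near background in both groups, and ELF5, MAOB and NDP were near it in withdrawal cells. The KRT8 call was lost in 10 of 15 other settings. On chromosome 7, CAV2, CAV1 and MET fell in a row by 0.69, 1.56 and 0.80. CAV1, the main protein of caveolae, read 12.66, 12.73 and 12.70 in withdrawal cells, against 14.23, 14.20 and 14.33 in parental cells. HOXB7 fell by 0.82. HOXB9, picked by hand and in none of these pairs, fell by 0.64 in SW48 and changed by 1.41 in LIM1215 and -2.40 in Caco2. The number of same-direction pairs was 4 to 57 in the other settings, following the number of called genes.

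The same withdrawal against parental change was set beside that of LIM1215 and Caco2, 2 other colorectal lines treated alike. In a limma fit on all 27 arrays, the SW48 change differed from the mean change of the other lines for 1332 genes (7.53%), 676 higher in SW48 (3.82%) and 656 lower (3.71%). Without 1 LIM1215 parental array that stands apart, replicate 3, the number was 2553. In the fit on all 27 arrays, withdrawal cells differed from parental cells for 722 genes in SW48, 3726 (21.1%) in LIM1215 and 933 (5.28%) in Caco2. The 10 largest rises and 10 largest falls in SW48 were tested for this difference, and 19 of the 20 passed, 9 higher and 10 lower in SW48. They were picked for large changes in SW48, so a difference in that direction is favoured by the choice. ALDH3A1 changed by -5.68 in SW48, -0.39 in LIM1215 and 1.12 in Caco2. SLC2A3 changed by 4.49 in SW48, -0.95 in LIM1215 and 0.06 in Caco2. The gene that did not pass was PLAUR, at 1.90 in SW48, 2.04 in LIM1215 and -0.37 in Caco2 (adjusted p = 0.367). NT5E, at -2.17 in SW48, -1.42 in LIM1215 and -0.45 in Caco2, passed with an adjusted p of 0.0392, and lost the call whichever 1 of the 6 SW48 arrays was left out (0.0688 to 0.0897).

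**Figure D5:**
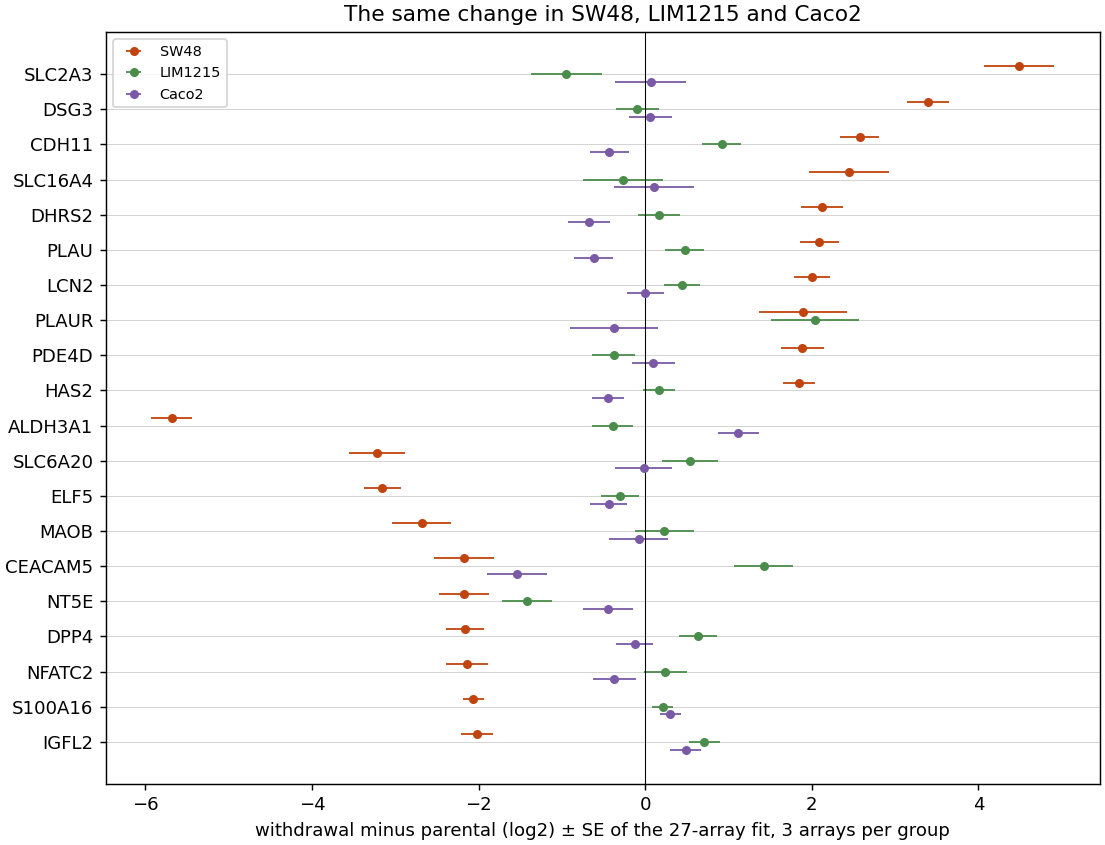
Withdrawal minus parental change (log2) with its standard error from the 27-array fit for the 10 largest SW48 rises and falls, with SW48 in orange, LIM1215 in green and Caco2 in violet, 3 arrays per group. The SW48 points lie apart from both other lines for most genes, whereas for PLAUR the LIM1215 point lies beside it.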

How the data were processed

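The series holds 27 Affymetrix whole-transcript arrays of total RNA, 1 colour each. The authors deposited 1 table of values, taken as log2 intensities from their range. For the deposited log2 values the unit, software and normalization are not given in the files or labels. Of 24351 probe sets, 2903 are controls; 17709 of the 21448 others have a gene symbol and 3739 are unnamed. Where a gene had more than 1 probe set (20 genes), the brightest stood for it, and dim genes were kept. "Near background" means a group mean under the average of its arrays' 95th percentiles over negative controls, and "at least" marks a fold taken against that level.

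A mean per group was fitted to the 9 SW48 arrays with limma 3.58.1 in R 4.3.3 (6 residual and 3.76 prior degrees of freedom), two-sided, with Benjamini-Hochberg adjustment over 17687 genes and a threshold of 0.05. The 9 arrays were used because the lines lie on different value ranges; the difference between lines came from all 27. The fits were tested on simulated data. Alternatives covered the arrays in the fit, a replicate block, quantile and median scaling, dim genes, probe sets, a robust variance with a trend, and leaving out each replicate. Same-numbered withdrawal and parental arrays did not deviate together (r of 0.03, -0.02 and 0.07), so numbers were not taken as pairs. Named were the 15 largest called changes each way among genes whose groups do not overlap, up to 4 called members per list, and a set of receptor, presentation and NK genes. Members and lists were chosen with earlier results of these data known. The other genes and groups named here were picked after their values were seen. Figures were drawn with matplotlib 3.10.9 in Python 3.11.15.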

Additional observations from a re-analysis of the deposited data

Results flagged for a closer look

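For 19 of the 20 largest SW48 changes, the withdrawal minus parental change in SW48 differed from the mean of the same change in LIM1215 and Caco2 (limma on 27 arrays, adjusted over all genes), which is what set them apart here. Among the rises the log2 difference was 4.93 for SLC2A3, 3.41 for DSG3, 2.53 for SLC16A4, 2.37 for DHRS2, 2.33 for CDH11, 2.16 for PLAU, 2.03 for PDE4D, 1.99 for HAS2 and 1.78 for LCN2. Among the falls it was -6.05 for ALDH3A1, -3.48 for SLC6A20, -2.78 for ELF5, -2.76 for MAOB, -2.62 for IGFL2, -2.42 for DPP4, -2.32 for S100A16, -2.12 for CEACAM5, -2.07 for NFATC2 and -1.24 for NT5E. Adjusted p ran from 2.15e-11 for ALDH3A1 to 0.0392 for NT5E. CEACAM5 moved in opposite directions in the other lines, by 1.42 in LIM1215 and -1.54 in Caco2. The 20 genes were picked for large SW48 changes. In SW48 the parental mean of SLC2A3, DSG3, SLC16A4 and CDH11 and the withdrawal mean of ALDH3A1, SLC6A20, ELF5, MAOB, CEACAM5 and NFATC2 lay below background, so their differences rest partly on values under that level and give no order among genes.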

How the results depend on the processing

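The 380 called genes (156 higher, 224 lower) became 722 (315 and 407) with all 27 arrays, 209 (89 and 120) with only the 6 arrays compared, 884 (404 and 480) with dim genes left out and 903 (416 and 487) with the robust variance and trend. Replicate numbers did not pair the samples, and with the replicate block 229 genes passed (95 and 134). Leaving out each replicate in turn gave 164 to 199 genes, 72 to 89 of them higher and 92 to 118 lower. No gene called in common changed direction, and the 2-fold count stayed between 111 and 185. The line difference had 2553 genes without LIM1215 parental replicate 3, against 1332; without single SW48 replicates it had 888 to 1095. NT5E missed there with the replicate block (adjusted p = 0.0801). Of 61 named called genes 40 passed in every alternative that tested them (up to 15) and 21 were lost in at least 1, where their highest adjusted p was 0.0966 for SLC16A4, 0.0928 for PDE4D, 0.0769 for GBP3, 0.0539 for SLC29A4, 0.158 for DUSP4, 0.431 for ULBP1, 0.0995 for NFKB2, 0.101 for TNFRSF10B, 0.125 for CASP4, 0.0614 for KRT80, 0.148 for KRT8, 0.142 for PRRX1, 0.137 for SMAD7, 0.117 for AXIN2, 0.144 for CDKN1A, 0.743 for DDIT4, 0.0722 for SLC6A6, 0.308 for SLC7A11, 0.0889 for TMPRSS4, 0.0934 for MET and 0.088 for ROR1. With all 27 arrays DUSP4, ULBP1, KRT80, PRRX1, SMAD7, CDKN1A, DDIT4, SLC7A11 and TMPRSS4 missed, while CDH1, CDX2 and NECTIN2 passed (adjusted p = 0.0187, 0.00877 and 0.00267). Uncalled changes near 0 turned sign: centred on the median, CD74 was 0.0459 and GNLY 0.0296. Without single replicates CD74 ran from -0.267 to 0.295, CASP8 from -0.200 to 0.0176, GNLY from -0.136 to 0.0529, HLA-DRA from -0.244 to 0.0289, ICAM1 from -0.147 to 0.108, NCAM1 from -0.0416 to 0.115, JAK1 from -0.0537 to 0.0838 and PVR from -0.0487 to 0.0651. The causes were not tested. The number of arrays limits precision, and differences under background have no fold.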
